A study of Mus musculus with 13 samples.

Results

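Crypt stem cell and Wnt feedback genes were followed in mouse rectum as a set of 10 named genes: Lgr5, Tnfrsf19, Ascl2, Sp5, Axin2, Nkd1, Rnf43, Znrf3, Olfm4 and Smoc2. All 10 were measured, each by 1 Affymetrix transcript cluster that names no other gene, among 19938 genes measured this way. The tissues were 5 adenocarcinomas and 4 pieces of inflamed rectal mucosa, both macrodissected from cryosections of rectal prolapses of α6fl/fl Villin-Cre mice, and 4 scrapings of normal rectal mucosa from control mice. In α6fl/fl Villin-Cre mice the Villin promoter drives Cre in the intestinal epithelium only, so stromal cells keep α6 integrin (Itga6). One label field gives the α6fl/fl Villin-Cre genotype to the normal samples as well, while another calls them controls. The tumours were numbered 1, 2, 3, 4 and 6 and came from mice of 53, 60, 60, 64 and 80 weeks. Inflamed mucosa 1 to 4 came from mice of 53, 60, 60 and 64 weeks, and normal mucosa 1, 2, 4 and 6 from mice of 53, 60, 64 and 70 weeks. Numbers 1 and 6 were female and the others male. Dissected prolapse tissue and scraped normal mucosa also differ in how they were collected, which cannot be told apart from the tissue in either comparison with normal mucosa. The labels do not state that each array had its own mouse, so the p-values measure the spread between these pieces.

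Wnt signals keep the stem cells at the base of intestinal crypts dividing. A Wnt ligand bound to Frizzled and Lrp5 or Lrp6 stops the destruction complex from degrading β-catenin, which then acts with TCF/LEF factors on target genes. Several of those targets damp the same signal. Axin2 rebuilds the destruction complex, Nkd1 acts on Dishevelled, and the membrane ubiquitin ligases Rnf43 and Znrf3 remove Frizzled from the cell surface. R-spondins, bound by Lgr5 and its relatives, counter Rnf43 and Znrf3. Ascl2 is a transcription factor of the Lgr5-expressing stem cells, Sp5 is a zinc finger factor induced directly by β-catenin, and Tnfrsf19 (Troy), Olfm4 and Smoc2 are further genes known from those cells.

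Promoter sequences are shown for the classical direct target Sp5 and for Ascl2 and Nkd1, the genes called between adenocarcinoma and inflamed mucosa. RefSeq windows (GRCm38.p6) of 250 bases before to 50 after a transcription start were found for 7 of the 10 genes, and none for Lgr5, Znrf3 and Smoc2. They were searched for the TCF/LEF core, spelled CTTTGA or CTTTGT, on both strands, and matches stand in capitals. Of all 32851 windows, 31.2% held a match, 6.68% held 2 or more and 0.0365% held 5 or more. The Sp5 window (chr2:70474673-70474972, plus strand) held 5 matches. No match was found in the Ascl2 window (chr7:142969215-142969514, minus strand), in the Nkd1 window (chr8:88527383-88527682, plus strand), or in those of Axin2, Rnf43 (2 windows) and Olfm4. Of 2 Tnfrsf19 windows, 1 held 1 match. The Nkd1 and Axin2 windows lie at starts inside these genes, whose spans begin at chr8:88521342 and chr11:108917828. The sequence before those gene ends was not searched. A match is a run of letters and does not show binding, and other sequence of these genes was not searched.
Sp5: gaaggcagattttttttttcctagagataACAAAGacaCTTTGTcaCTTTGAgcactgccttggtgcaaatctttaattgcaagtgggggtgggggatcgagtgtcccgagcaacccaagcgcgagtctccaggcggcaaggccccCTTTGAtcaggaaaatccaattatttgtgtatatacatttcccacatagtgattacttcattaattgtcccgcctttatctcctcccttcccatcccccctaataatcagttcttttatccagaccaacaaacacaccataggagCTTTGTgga
Ascl2: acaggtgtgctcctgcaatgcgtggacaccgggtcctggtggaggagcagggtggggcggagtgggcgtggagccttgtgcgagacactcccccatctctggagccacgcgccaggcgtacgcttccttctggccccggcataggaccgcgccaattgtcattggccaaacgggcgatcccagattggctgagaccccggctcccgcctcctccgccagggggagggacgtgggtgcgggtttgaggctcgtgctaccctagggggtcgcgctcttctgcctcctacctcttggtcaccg
Nkd1: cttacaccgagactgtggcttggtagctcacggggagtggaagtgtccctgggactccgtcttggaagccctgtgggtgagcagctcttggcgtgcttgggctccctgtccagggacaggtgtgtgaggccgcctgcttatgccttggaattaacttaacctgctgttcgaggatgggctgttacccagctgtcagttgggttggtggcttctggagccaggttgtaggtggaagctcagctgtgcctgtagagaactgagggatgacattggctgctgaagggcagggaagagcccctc

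Values are log2 RMA expression values, on which 1 unit is a 2-fold difference, and levels of different genes on this scale are not comparable. Array medians over the 19938 genes lay between 6.87 and 7.15. Transcripts absent by sex (Xist on male arrays, 3 Y-linked genes on female arrays, 23 values) read between 3.60 and 5.57. Of the 10 genes, 9 lay above 5.57 on all 13 arrays, and Olfm4 lay at or below it on 5. The targeted gene Itga6 averaged 11.53 ± 0.07 in adenocarcinomas, 11.09 ± 0.13 in inflamed mucosa and 10.91 ± 0.20 in normal mucosa (SD, n = 5, 4 and 4), on a cluster covering the whole gene, so it does not check the deletion. Epithelial markers (mean of 12 genes such as Epcam and Krt8) lay between 11.35 and 11.52 in adenocarcinomas, 11.10 and 11.34 in inflamed mucosa, and 11.32 and 11.64 in normal mucosa. Markers of squamous epithelium were high on 3 arrays, at 9.28 in adenocarcinoma 2, 8.27 in adenocarcinoma 3 and 10.19 in normal mucosa 1, against 7.24 or less on the other 10.

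**Figure D1:**
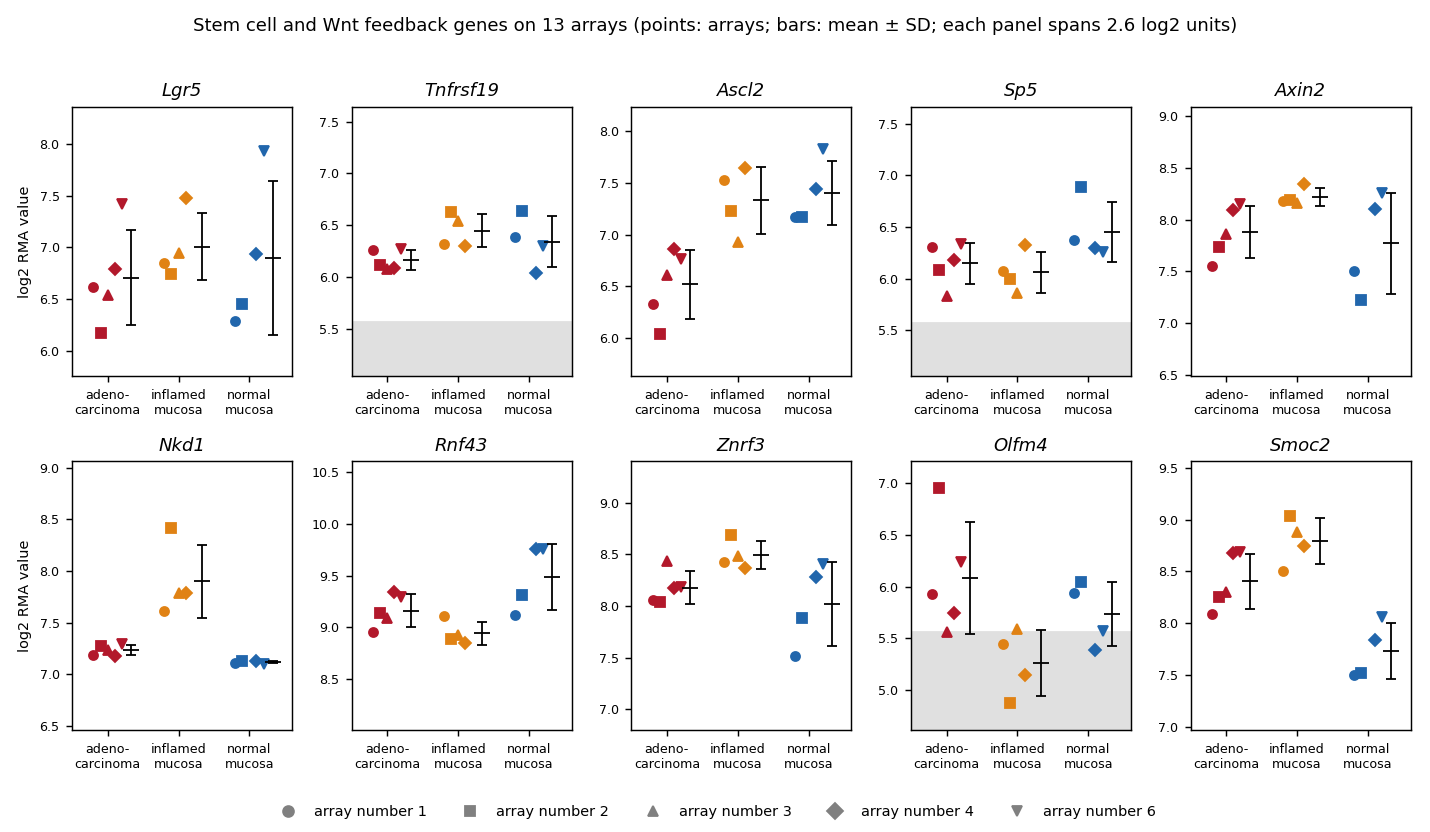
Log2 RMA values (vertical axes) of the 10 genes on each array, with adenocarcinoma left, inflamed mucosa in the middle and normal mucosa right in every panel; symbols give the array number, black bars the mean ± SD, and grey shading the levels up to 5.57 read by transcripts absent by sex. All 5 tumours lie below all other arrays for Ascl2, all 4 inflamed pieces lie above all other arrays for Nkd1, and Lgr5 overlaps between the 3 groups.

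In adenocarcinomas 1 of the 10 genes rose and 1 fell. Ascl2 was lower in the tumours than in normal mucosa, Smoc2 was higher, and the other 8 genes, Lgr5 and Axin2 among them, did not pass the test. These 2 of 10 calls (20%) compare with 35.8% of all 19938 genes called between adenocarcinoma and normal mucosa, 16.4% higher and 19.4% lower (limma, Benjamini-Hochberg adjusted p below 0.05). The median difference over the 10 genes was -0.04 on the log2 scale, and over all genes it was -0.10. In inflamed mucosa Nkd1 and Smoc2 were higher and Rnf43 lower than in normal mucosa, 3 of 10 (30%), where 26.7% of all genes were called, 13.7% higher and 13% lower. The median over the set was 0.11, against -0.09 over all genes. Between adenocarcinoma and inflamed mucosa Ascl2 and Nkd1 were lower in the tumours and no member was higher, 2 of 10 (20%), where 7.12% of all genes were called, 2.91% higher and 4.21% lower. The median there was -0.31, against -0.01 over all genes. Groups did not overlap in adenocarcinoma against normal mucosa for 3 genes (Nkd1 and Smoc2 higher, Ascl2 lower), where 26.9% of all genes did not (13% higher, 13.9% lower). In inflamed against normal mucosa it was 3 as well (Nkd1 and Smoc2 higher, Rnf43 lower), against 27.6% of all genes (12% higher, 15.5% lower). In adenocarcinoma against inflamed mucosa it was 4, all lower (Ascl2, Nkd1, Axin2 and Tnfrsf19), against 11.8% of all genes (5.27% higher, 6.51% lower). With arrays centred on their medians, the calls were 1 higher and 4 lower in adenocarcinoma against normal mucosa and 2 higher and 3 lower in inflamed against normal mucosa. All genes shifted likewise under that scaling, to 2491 higher and 8612 lower, and to 1875 higher and 9510 lower. With arrays centred on the epithelial markers, the calls against normal mucosa were 1 higher and 1 lower in adenocarcinoma and 5 higher and 0 lower in inflamed mucosa, where all genes gave 3172 higher and 2442 lower, and 5236 higher and 551 lower. With that centring 4 were lower and 0 higher in adenocarcinoma than in inflamed mucosa, and of all genes 3422 were lower and 291 higher.

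**Figure D2:**
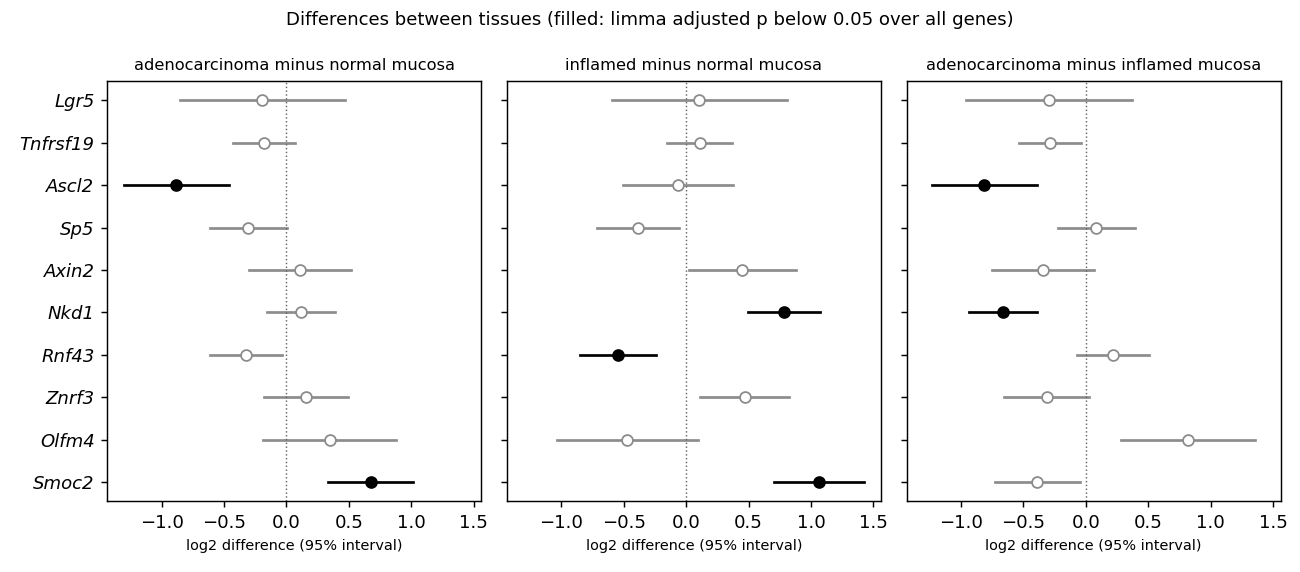
Log2 differences with 95% intervals from limma (horizontal axes) for the 10 genes in 3 comparisons; filled points passed an adjusted p below 0.05 over all genes. Ascl2 lies left of 0 in both comparisons of adenocarcinoma, at -0.88 and -0.81, and Smoc2 right of 0 in both comparisons with normal mucosa, at 0.68 and 1.07.

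Ascl2, which in mouse intestine sets the stem cell programme together with β-catenin, had 6.33, 6.04, 6.61, 6.86 and 6.76 in adenocarcinomas 1, 2, 3, 4 and 6, against 7.53, 7.22, 6.93 and 7.65 in inflamed mucosa 1 to 4 and 7.17, 7.17, 7.44 and 7.82 in normal mucosa 1, 2, 4 and 6. Every tumour was below every inflamed and every normal piece. Ascl2 fell 1.84-fold in adenocarcinoma relative to normal mucosa (-0.88 ± 0.19 on the log2 scale, SE, n = 5 and 4, limma adjusted p = 0.00341) and 1.76-fold relative to inflamed mucosa (-0.81 ± 0.19, n = 5 and 4, limma adjusted p = 0.0220). With arrays centred on the epithelial markers these differences were -0.83 (limma adjusted p = 0.00823) and -1.02 (limma adjusted p = 0.00686). The call against inflamed mucosa was lost without adenocarcinoma 1 or 2 or inflamed mucosa 1, 2 or 4, where the difference lay between -0.85 and -0.69 and the limma adjusted p between 0.0503 and 0.0796. The inflamed minus normal difference was -0.07, with a 95% interval of -0.51 to 0.37. In whole tissue pieces, fewer cells of a type and less RNA per cell cannot be told apart.

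Sp5, the other transcription factor, had 6.31, 6.08, 5.83, 6.18 and 6.33 in adenocarcinomas, 6.07, 5.99, 5.86 and 6.33 in inflamed mucosa, and 6.37, 6.88, 6.29 and 6.26 in normal mucosa. The groups overlapped, with normal mucosa 2 the highest array. That piece was the highest normal piece in 40.7% of all genes. The differences of Sp5 from normal mucosa were -0.30 in adenocarcinoma (limma adjusted p = 0.112) and -0.39 in inflamed mucosa (limma adjusted p = 0.0725), and neither passed. Without single arrays the inflamed minus normal difference lay between -0.48 and -0.25, and it was -0.25 without normal mucosa 2. Sp5, whose promoter window is printed above with its 5 TCF/LEF cores, was called in none of the 3 comparisons. Among the alternatives run, both differences passed with arrays centred on their medians and with no other.

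Lgr5, the R-spondin receptor that marks crypt base stem cells, had 6.61, 6.17, 6.53, 6.79 and 7.42 in adenocarcinomas, 6.85, 6.74, 6.95 and 7.47 in inflamed mucosa, and 6.28, 6.45, 6.93 and 7.93 in normal mucosa. It spread over 1.65 units among the normal pieces, with the highest and the second lowest of all 13 values there. Its SD in normal mucosa, 0.74, was larger than that of 97.6% of all genes. The differences were -0.19 in adenocarcinoma and 0.11 in inflamed mucosa relative to normal mucosa. The 95% intervals were -0.86 to 0.47 and -0.59 to 0.81, so this fit does not exclude changes of either direction within them. Markers of dividing cells (mean of 9 genes such as Mki67 and Rrm2) also varied among the normal pieces, at 7.81, 6.99, 8.15 and 8.37 in normal mucosa 1, 2, 4 and 6, against 8.70 to 8.92 in adenocarcinomas and 8.13 to 8.78 in inflamed mucosa. Their part in the spread of Lgr5 was not tested.

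Tnfrsf19, a receptor of the tumour necrosis factor receptor family expressed in Lgr5-positive cells of the mouse intestine, had 6.26, 6.11, 6.07, 6.09 and 6.27 in adenocarcinomas, 6.32, 6.63, 6.54 and 6.30 in inflamed mucosa, and 6.38, 6.64, 6.04 and 6.29 in normal mucosa. All tumours lay below all inflamed pieces, by as little as 0.035. The adenocarcinoma minus inflamed difference of -0.29 ± 0.12 (SE, n = 5 and 4) did not pass (limma adjusted p = 0.175). It passed with arrays centred on the epithelial markers (-0.50, limma adjusted p = 0.0175).

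Among the feedback inhibitors, Nkd1 stood out in inflamed mucosa. It had 7.19, 7.28, 7.24, 7.18 and 7.30 in adenocarcinomas, 7.61, 8.42, 7.79 and 7.79 in inflamed mucosa, and 7.11, 7.13, 7.13 and 7.10 in normal mucosa. The inflamed pieces lay above all others, and the tumours in turn above all normal pieces by a small margin. Nkd1 was 1.72-fold higher in inflamed than in normal mucosa (0.78 ± 0.13, SE, n = 4 and 4, limma adjusted p = 0.000905) and fell 1.59-fold in adenocarcinoma relative to inflamed mucosa (-0.67 ± 0.13, n = 5 and 4, limma adjusted p = 0.00610). The adenocarcinoma minus normal difference was 0.12 (limma adjusted p = 0.477), with an opposite sign (-0.020) when arrays were centred on their medians.

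Smooth muscle markers were also highest in inflamed mucosa. Their mean over 10 genes lay between 8.50 and 8.77 in adenocarcinomas, 10.15 and 11.13 in inflamed mucosa, and 6.50 and 7.96 in normal mucosa. Of the 10, all rose in inflamed relative to normal mucosa (Myh11 log2 difference 4.19) and 9 fell in adenocarcinoma relative to inflamed mucosa (Myh11 log2 difference -2.70). In adenocarcinoma relative to normal mucosa 8 of the 10 rose (median 1.61), where Nkd1 was not called. Markers of enteric neurons and glia (3 of 7 rose in inflamed relative to normal mucosa and 4 fell in adenocarcinoma relative to inflamed mucosa) and of interstitial cells of Cajal (2 of 3 rose and 1 fell, and 2 fell) had calls in the same comparisons. Inflamed mucosa 2 was the highest of the 13 arrays both in Nkd1 and in these markers. The genes with the most similar pattern over the 13 arrays were Mrvi1 (Pearson r = 0.98), Prkg1 (0.98) and Myom1 (0.97), as a description of arrays that share 3 tissue classes. The part of muscle, nerve or interstitial cells in the level of Nkd1 was not tested.

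**Figure D3:**
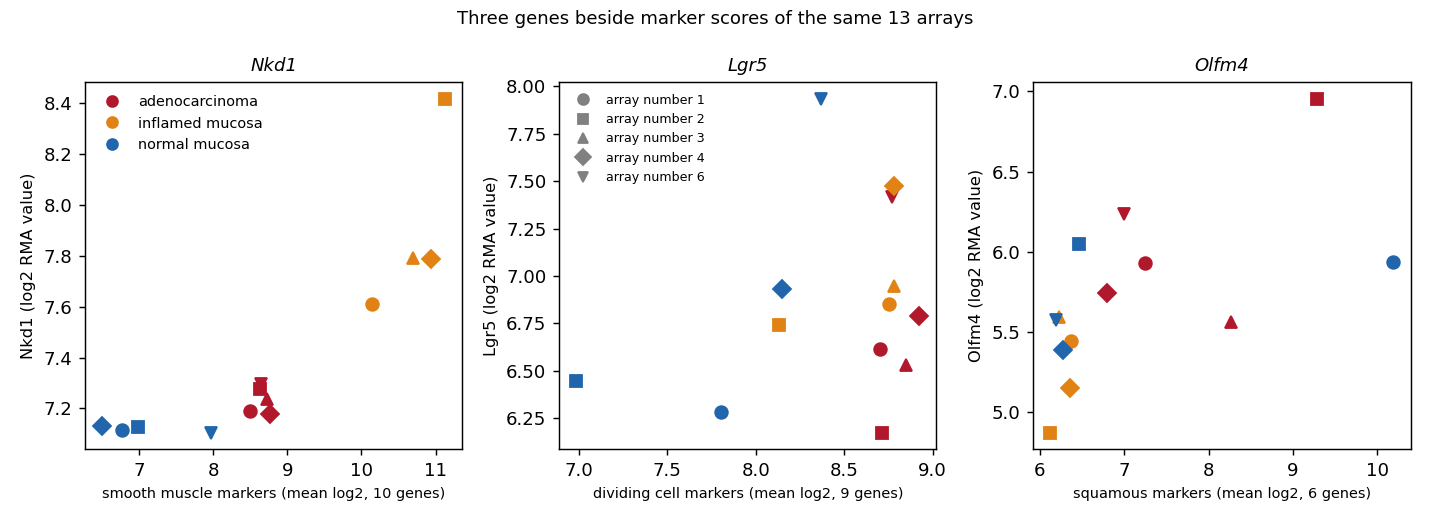
Nkd1, Lgr5 and Olfm4 (vertical axes, log2 RMA value) against the mean log2 value of smooth muscle, dividing cell and squamous markers (horizontal axes), 1 point per array, coloured by tissue with symbols for the array number. Nkd1 is highest on the 4 inflamed arrays, whose smooth muscle mean is at least 10.15, and the highest Olfm4 value, 6.95, is that of adenocarcinoma 2 with a squamous mean of 9.28.

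Axin2, the inhibitor often read as a reporter of Wnt activity, had 7.56, 7.73, 7.86, 8.09 and 8.15 in adenocarcinomas, 8.18, 8.19, 8.16 and 8.35 in inflamed mucosa, and 7.50, 7.22, 8.10 and 8.26 in normal mucosa. The inflamed pieces lay close together and above all tumours, the nearest by 0.011, while the normal pieces split into 2 low and 2 high values. Adenocarcinoma differed from normal mucosa by 0.11 (95% interval -0.30 to 0.51), a value that turned to -0.028 with median centring. The inflamed minus normal difference of 0.45 ± 0.20 (SE, n = 4 and 4) did not pass (limma adjusted p = 0.105). It passed without normal mucosa 6 (0.61, limma adjusted p = 0.0287), the normal piece highest in Axin2 and in dividing cell markers. That piece was also the normal piece highest in smooth muscle (7.96) and fibroblast (7.89) markers and lowest in epithelial markers (11.32). The part of these cells in its Axin2 value was not tested. Without normal mucosa 2, the normal piece lowest in Axin2 and in dividing cell markers, the difference was 0.27 (limma adjusted p = 0.309). With median centring it was 0.26 (limma adjusted p = 0.278). It passed with age as a covariate (0.52, limma adjusted p = 0.0265). Centring on the epithelial markers, where 90.5% of all called genes were higher, also let it pass (0.71, limma adjusted p = 0.0367).

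Rnf43 and Znrf3, ligases of the same function, had differences of opposite sign in inflamed mucosa, of which that of Rnf43 passed. Rnf43 had 8.95, 9.13, 9.09, 9.34 and 9.29 in adenocarcinomas, 9.10, 8.89, 8.92 and 8.85 in inflamed mucosa, and 9.12, 9.31, 9.76 and 9.76 in normal mucosa. All inflamed pieces lay below all normal pieces, the closest by 0.015. Rnf43 fell 1.46-fold in inflamed relative to normal mucosa (-0.55 ± 0.14, SE, n = 4 and 4, limma adjusted p = 0.0129), a call that ended with arrays centred on the epithelial markers (-0.29, limma adjusted p = 0.235). In adenocarcinoma it was 0.33 below normal mucosa, which did not pass (limma adjusted p = 0.0717). The difference passed without normal mucosa 1 (-0.45, limma adjusted p = 0.0151), the normal piece with squamous markers at 10.19. That difference also passed with age as a covariate (-0.35, limma adjusted p = 0.0386) and with array weights (-0.39, limma adjusted p = 0.0333). It passed with median centring too (-0.46, limma adjusted p = 0.0151), where 2491 of all genes were higher and 8612 lower.

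Znrf3 had 8.06, 8.04, 8.44, 8.18 and 8.18 in adenocarcinomas, 8.43, 8.68, 8.48 and 8.37 in inflamed mucosa, and 7.51, 7.88, 8.28 and 8.41 in normal mucosa. The inflamed pieces were high, apart from an overlap of inflamed mucosa 4 with normal mucosa 6. The inflamed minus normal difference of 0.47 ± 0.17 (SE, n = 4 and 4) narrowly missed the threshold (limma adjusted p = 0.0509). It passed without normal mucosa 4 (0.56, limma adjusted p = 0.0349) and without normal mucosa 6 (0.60, limma adjusted p = 0.0156). Without normal mucosa 1, the lowest normal piece, it was 0.30 (limma adjusted p = 0.124), and with median centring it was 0.28 (limma adjusted p = 0.169). Normal mucosa 1, with squamous markers at 10.19, was the lowest normal piece in 4 of the 10 genes (Lgr5, Rnf43, Znrf3 and Smoc2). Of all genes it was lowest in 26.5%. The part of squamous tissue in these values was not tested.

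The difference Znrf3 minus Rnf43 within each array cancels any constant added to an array, though not other scalings. It was chosen after the opposite signs of the 2 genes had been seen on these arrays, so it is given as a description with no test. It averaged -0.98 ± 0.21 in adenocarcinomas, -0.45 ± 0.19 in inflamed mucosa and -1.46 ± 0.11 in normal mucosa (SD, n = 5, 4 and 4). The normal pieces lay below all others, so that normal mucosa had the lowest Znrf3 relative to Rnf43, and adenocarcinoma 3 alone overlapped with inflamed mucosa. The mean was 1.01 higher in inflamed than in normal mucosa and 0.48 higher in adenocarcinoma than in normal mucosa. Between adenocarcinoma and inflamed mucosa the difference was -0.53.

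**Figure D4:**
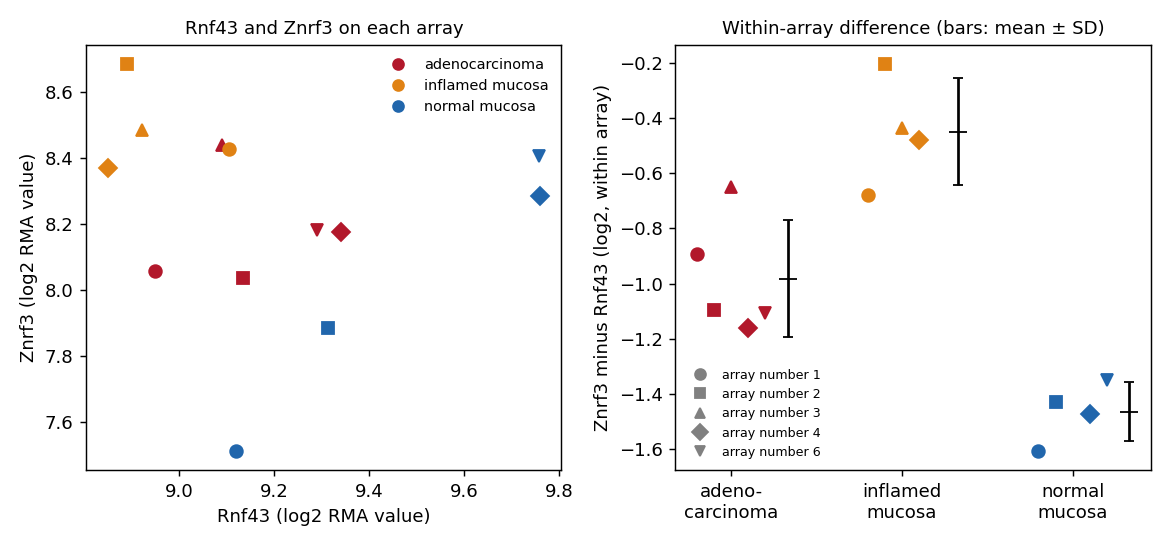
Left, Znrf3 against Rnf43 on each array (log2 RMA values), coloured by tissue; right, Znrf3 minus Rnf43 within each array by tissue, with black bars for mean ± SD and symbols for the array number. The 4 normal arrays lie between -1.61 and -1.35, below the 5 tumours (-1.16 to -0.65) and the 4 inflamed arrays (-0.68 to -0.20).

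Smoc2, a secreted calcium-binding protein of the extracellular matrix, had 8.09, 8.26, 8.30, 8.68 and 8.69 in adenocarcinomas, 8.50, 9.03, 8.89 and 8.75 in inflamed mucosa, and 7.50, 7.52, 7.84 and 8.06 in normal mucosa. Every prolapse piece, tumour or inflamed, was above every normal piece. Smoc2 rose 1.60-fold in adenocarcinoma relative to normal mucosa (0.68 ± 0.16, SE, n = 5 and 4, limma adjusted p = 0.00498), with the lowest tumour 0.033 above the highest normal piece. In inflamed mucosa the difference was 1.07 ± 0.17 (n = 4 and 4, limma adjusted p = 0.000461). Fibroblast markers rose on the same arrays, 9 of 9 in each comparison with normal mucosa, and their mean lay between 9.31 and 9.85 in adenocarcinomas, 9.22 and 9.70 in inflamed mucosa, and 6.86 and 7.89 in normal mucosa. The adenocarcinoma minus inflamed difference of Smoc2, -0.39, did not pass (limma adjusted p = 0.180). It passed with age as a covariate (-0.50, limma adjusted p = 0.0199) and with arrays centred on the epithelial markers (-0.60, limma adjusted p = 0.0498). The genes closest to Smoc2 in pattern over 13 arrays were Parva, Plekhh2 and Pdzrn3 (Pearson r = 0.96, 0.95 and 0.95). The part of stromal cells in the rise of Smoc2 was not tested.

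Olfm4, a secreted glycoprotein of stem cells in the mouse small intestine that is also a granule protein of neutrophils, lay near the level of absent transcripts. It had 5.93, 6.95, 5.56, 5.74 and 6.24 in adenocarcinomas, 5.44, 4.87, 5.60 and 5.15 in inflamed mucosa, and 5.94, 6.05, 5.39 and 5.58 in normal mucosa. Adenocarcinoma 2 was the highest array, and 3 of 4 inflamed pieces lay within the range of absent transcripts. The adenocarcinoma minus inflamed difference of 0.82 ± 0.25 (SE, n = 5 and 4) did not pass (limma adjusted p = 0.0650), but did without adenocarcinoma 3 (0.95, limma adjusted p = 0.0354) and with array weights (1.01, limma adjusted p = 0.0274). Neutrophil markers (mean of 9 genes) lay between 7.33 and 8.55 in adenocarcinomas, 5.87 and 6.22 in inflamed mucosa, and 5.63 and 7.16 in normal mucosa, and 7 of 9 rose in adenocarcinoma relative to inflamed mucosa. Adenocarcinoma 2, with squamous markers at 9.28, had a neutrophil mean of 7.89, inside the range of the other tumours. Of the other arrays with high squamous markers, adenocarcinoma 3 (squamous mean 8.27) was the lowest tumour in Olfm4 at 5.56. Normal mucosa 1 (10.19) had 5.94, below the 6.05 of normal mucosa 2 and above the other normal pieces. The gene closest to Olfm4 in pattern was Lor, the loricrin of cornified epithelium (Pearson r = 0.95, n = 13). The part of squamous tissue or neutrophils in the Olfm4 values was not tested.

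Tumour and inflamed pieces of 1 number, alike in sex and age, were compared as 4 pairs, a pairing that the labels do not state. Within the pairs, 7 of the 10 genes were lower in the tumour all 4 times: Lgr5, Tnfrsf19, Ascl2, Axin2, Nkd1, Znrf3 and Smoc2. Of all genes, 16.8% were lower in all 4 pairs. None of the 10 was higher in all 4, as 13.6% of all genes were. Lgr5 differed by -0.24, -0.57, -0.41 and -0.68 in pairs 1 to 4, and Axin2 by -0.63, -0.45, -0.31 and -0.26. In a fit of these 4 pairs with the replicate number as a block, Lgr5 passed (-0.48 ± 0.10, SE, limma adjusted p = 0.0234) and so did Axin2 (-0.41 ± 0.09, limma adjusted p = 0.0322), which the unpaired test had not called (limma adjusted p = 0.716 and 0.366). In this fit 1175 of all 19938 genes were lower and 732 higher, against 839 and 581 in the unpaired one. Ascl2 (-0.87, limma adjusted p = 0.0134) and Nkd1 (-0.68, limma adjusted p = 0.0166) passed in both fits, and Smoc2 did not in this one (-0.46, limma adjusted p = 0.0553). With the replicate number as a fixed block over all 13 arrays, which also ties normal pieces to a number although they were not taken as paired, Lgr5 passed (-0.52, limma adjusted p = 0.0371), Smoc2 passed (-0.47, limma adjusted p = 0.0441) and Axin2 did not (limma adjusted p = 0.0669). With a random block at an estimated correlation over the 13 arrays, none of these 3 passed: the limma adjusted p was 0.677 for Lgr5, 0.331 for Axin2 and 0.158 for Smoc2. The fit of the 4 pairs also leaves out adenocarcinoma 6, the highest tumour in Lgr5 (7.42) and Axin2 (8.15). Without that array alone the unpaired differences were -0.48 and -0.41, and neither passed. The calls of Lgr5 and Axin2 thus rest on the choice of block and of arrays, while Ascl2 and Nkd1 passed under each block. Rnf43 was lower in the tumour in 1 pair and higher in 3, Olfm4 likewise, and Sp5 was lower in 2 and higher in 2.

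**Figure D5:**
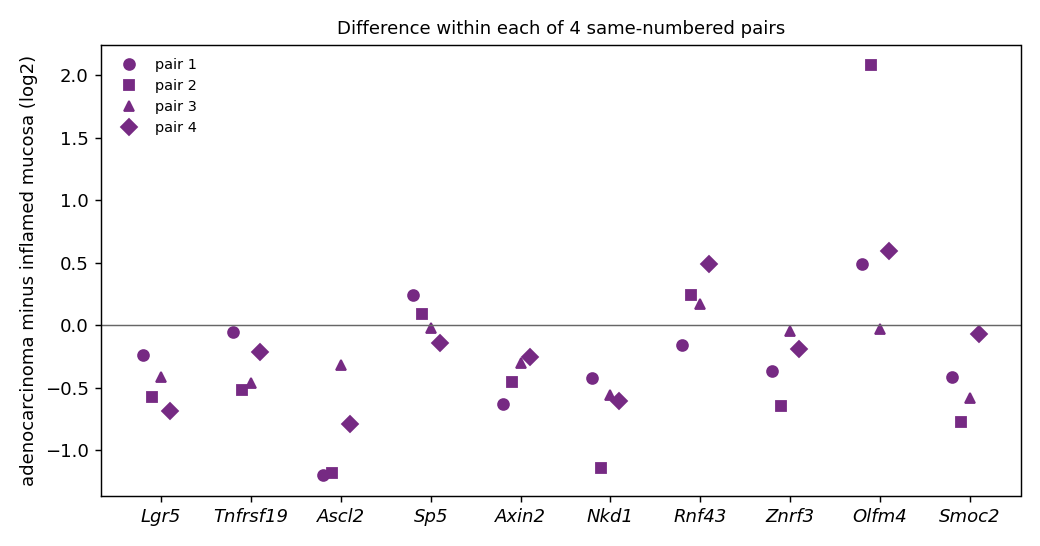
Adenocarcinoma minus inflamed mucosa (vertical axis, log2) within each of the 4 same-numbered pairs, for the 10 genes along the horizontal axis; symbols give the pair. Lgr5, Tnfrsf19, Ascl2, Axin2, Nkd1, Znrf3 and Smoc2 lie below 0 in all 4 pairs, and the highest point is Olfm4 in pair 2 at 2.08.

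Other genes of the pathway were read from lists. Of 14 genes listed as other Wnt targets, 7 rose and none fell in adenocarcinoma relative to normal mucosa, where 16.4% of all genes rose and 19.4% fell. Their median was 0.54, against -0.10 over all genes. They included the cyclin Ccnd1 (11.08 ± 0.23 and 9.30 ± 0.43 in adenocarcinoma and normal mucosa, SD, limma adjusted p = 5.99e-06) and the adhesion receptor Cd44 (10.30 ± 0.43 and 7.69 ± 1.07, limma adjusted p = 0.00017). The secreted Wnt inhibitor Wif1 (8.08 ± 0.39 and 6.44 ± 0.20, limma adjusted p = 9.29e-06) and Dkk3 of the Dickkopf family (8.01 ± 0.20 and 6.11 ± 0.17, limma adjusted p = 1.03e-06) also rose. They were counted in the list, though their rise need not be a response to Wnt. Dkk3 rose in inflamed relative to normal mucosa as well (2.04, limma adjusted p = 2.32e-06). Fibroblast markers rose in 9 of 9 in both comparisons with normal mucosa. The part of stromal cells in these rises was not tested. In inflamed mucosa 6 of the 14 rose and 1 fell, where 13.7% and 13% of all genes did. Between adenocarcinoma and inflamed mucosa, where 2.91% of all genes rose and 4.21% fell, 2 rose and 1 fell. With the block over the 4 pairs it was 5 and 1, where 732 of all genes rose and 1175 fell. Nkd2, the relative of Nkd1, moved as Nkd1 did: it rose in inflamed relative to normal mucosa (0.94, limma adjusted p = 0.00108) and fell in adenocarcinoma relative to inflamed mucosa (-0.69, limma adjusted p = 0.0169).

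Of 28 genes of the Wnt receptors, the destruction complex and TCF/LEF factors, 6 rose and 5 fell in adenocarcinoma relative to normal mucosa, near the 35.8% of all genes called. With median centring it was 6 and 11, where 2491 of all genes rose and 8612 fell. Fzd1, of the Frizzled family on which Rnf43 and Znrf3 act, had 9.66 ± 0.27 in adenocarcinoma, 8.92 ± 0.20 in inflamed mucosa and 8.09 ± 0.22 in normal mucosa (SD), and differed in all 3 comparisons (limma adjusted p = 3.92e-06 for adenocarcinoma against normal, 0.00182 for inflamed against normal and 0.00835 for adenocarcinoma against inflamed). The co-receptor Lrp5 rose by 1.04 in adenocarcinoma relative to normal mucosa (limma adjusted p = 5.62e-05), and Tcf7l2, the main TCF factor of gut epithelium, fell by 1.21 on the log2 scale (limma adjusted p = 6.81e-05). In inflamed mucosa 5 of the 28 rose and 3 fell, near the 26.7% of all genes called, and 3 and 14 with median centring, where 1875 of all genes rose and 9510 fell. Fzd4 and Fzd2 were among those that rose (1.54 and 0.97, limma adjusted p = 7.03e-05 and 0.000103), and Fzd5 among those that fell (-0.84, limma adjusted p = 0.000381). Fibroblast markers (9 of 9) and endothelial markers (8 of 8) rose in both comparisons with normal mucosa, where 16.4% and 13.7% of all genes rose. The part of cell make-up in the differences of these receptors and factors was not tested. Between adenocarcinoma and inflamed mucosa 3 of the 28 rose and none fell, where 2.91% of all genes rose and 4.21% fell. These counts became 1 and 0 without adenocarcinoma 2 or inflamed mucosa 2, 3 or 4. There all genes gave 380 and 569, 302 and 473, 377 and 652, and 350 and 507. With the block over the 4 pairs they were 2 and 3, where 732 of all genes rose and 1175 fell. With arrays centred on the epithelial markers they were 1 and 7, where 291 of all genes rose and 3422 fell.

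Of 17 further genes reported for Lgr5-positive stem cells, 4 rose and 4 fell in adenocarcinoma relative to normal mucosa, and 5 rose and 3 fell in inflamed mucosa, where 35.8% and 26.7% of all genes were called. Between adenocarcinoma and inflamed mucosa Phlda1 rose (1.23, limma adjusted p = 0.00907), and Esrrg (-0.69), Rgmb (-0.58) and Vdr (-1.03) fell (limma adjusted p = 0.00775, 0.0110 and 0.0235), 4 of 17 where 7.12% of all genes were called. Igfbp4 (10.79 ± 0.30 in adenocarcinoma and 6.89 ± 0.50 in normal mucosa, SD, limma adjusted p = 3.19e-08) and Fstl1 (10.42 ± 0.29 and 6.24 ± 0.59, limma adjusted p = 5.07e-08), both also made by stromal cells, led the rises, on arrays where fibroblast markers rose in 9 of 9. The chloride cotransporter Slc12a2 rose by 1.09 in adenocarcinoma (limma adjusted p = 4.43e-05) and by 0.81 in inflamed mucosa (limma adjusted p = 0.00109). Pdgfa was among the 3 that fell in inflamed mucosa (-0.73, limma adjusted p = 0.00195). Which cells these differences came from was not tested. In inflamed mucosa the 8 calls dropped to 3 higher and 2 lower without inflamed mucosa 1, without inflamed mucosa 2 or without normal mucosa 1, and to 3 higher and 1 lower without normal mucosa 2. In these fits all genes gave 2373 and 2000, 2133 and 1391, 2413 and 2072, and 2203 and 1471, against 2730 and 2592 in the main fit.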

How the data were processed

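RNA of 13 tissue pieces was hybridised to Mouse Gene 1.0 ST arrays from Affymetrix, with no pooling of pieces. The authors deposited log2 values, 1 for each transcript cluster, computed by RMA in Affymetrix Expression Console version 1.1 after scanning with GeneChip Command Console version 2.0, per the series' design text. Partek stands in the submitters' processing notes with no step given. RMA subtracts background and brings all arrays to a common distribution, which removes differences in total RNA and compresses those of dim genes.

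Of 35556 clusters, 21789 name 1 gene in the platform annotation, and 21698 of these were updated through Entrez identifiers in a RefSeq table of GRCm38.p6. Where a gene had several, the brightest was used. Tests were those of limma 3.58.1 under R 4.3.3 (lmFit, then eBayes, with 3 groups in 1 fit without a block, Benjamini-Hochberg over 19938 genes), and the fit was tested on simulated data. The members, lists and tests were chosen with earlier results of these data known. Beside the members, the text names up to 4 called genes per list and comparison with the smallest adjusted p. The 3 genes closest by Pearson r were found for each member. They are named for Nkd1 and Smoc2 only, and for Olfm4 the closest alone. No protein table was used here, so a planned comparison of the Rnf43 and Znrf3 proteins was not made.

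Same-numbered tumour and inflamed pieces 1 to 4 deviated together from their group means (Pearson r = 0.319, 0.198, 0.199 and 0.387). They were taken as pairs, which the labels do not state. For normal pieces and others of their number r lay between -0.126 and 0.0413, and these were not taken as pairs. Between tumour and inflamed pieces of unlike number r ran from -0.318 to 0.185, just below 0.198 and 0.199. Adenocarcinoma 1 and normal mucosa 2, also of unlike number, reached 0.283. The values 0.198 and 0.199 thus do not by themselves mark a pair. Alternatives were replicate blocks, a term for sex or age, fits of 2 groups, leaving out the dimmest 25% of genes, other scalings, other clusters, other variance models, array weights and leaving out each array. The number of arrays limits the precision.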

Additional observations from a re-analysis of the deposited data

Results flagged for a closer look

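Of 30 sets of values examined (10 genes in 3 groups), 1 held an array far from the rest of its group, where chance alone gives about 1 in 20. Axin2 read 8.35 in inflamed mucosa 4, while the other inflamed pieces lay between 8.16 and 8.19. The value stood apart because those 3 lay within 0.03 of each other, and it is close to the 8.26 of normal mucosa 6.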

How the results depend on the processing

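Of 660 values of single genes under alternatives, 610 kept direction and side of the threshold, 28 newly passed, 6 no longer passed and 16 changed sign, none of these 16 being called. For adenocarcinoma against normal mucosa, 2 genes were called, 5 with median centring and 2 to 3 without single arrays. It was 3 without normal mucosa 1, where all genes gave 3045 higher and 3299 lower, against 3266 and 3867 in the main fit. For inflamed against normal mucosa, 3 were called, 5 with age as a covariate, 5 with median centring, 5 with centring on epithelial markers, and 3 to 5 without single arrays (5 without normal mucosa 6). Axin2 and Znrf3 were the genes gained with age as a covariate. All genes gave 2739 higher and 2642 lower with age and 2762 and 3024 without normal mucosa 6, against 2730 and 2592 in the main fit. For adenocarcinoma against inflamed mucosa, 2 were called, 4 with the fixed and 2 with the random replicate block over all arrays, 4 with the replicate block over the 4 pairs (added after seeing the data), 4 with centring on epithelial markers and 1 to 3 without single arrays. All genes gave 461 higher and 722 lower with the fixed block and 610 and 893 with the random block. Over the 4 pairs they gave 732 and 1175, against 581 and 839 in the main fit. Without single arrays they ran from 302 and 473 (without inflamed mucosa 2) to 587 and 850 (without adenocarcinoma 3). The cause was not tested. The fixed replicate block over all arrays also called Axin2 in inflamed against normal mucosa (0.57, limma adjusted p = 0.0132), but normal pieces were not taken as paired, and the random block did not call it (0.46, limma adjusted p = 0.0918). Median centring moved the median of all genes from -0.10 to -0.24 for adenocarcinoma and from -0.09 to -0.28 for inflamed mucosa against normal mucosa, and the share of higher among called genes from 45.8% to 22.4% and from 51.3% to 16.5%. Centring on epithelial markers moved that share to 90.5% for inflamed against normal mucosa and from 40.9% to 7.84% for adenocarcinoma against inflamed mucosa, with all-gene medians of 0.16 and -0.21. Signs changed as follows. For adenocarcinoma minus normal, median centring gave Axin2 -0.028 and Nkd1 -0.020, array weights gave Axin2 -0.023, and leaving out normal mucosa 6, 2 or 1 gave Lgr5 0.15, Axin2 -0.075 or Znrf3 -0.014, within ranges without single arrays of -0.40 to 0.15, -0.075 to 0.27 and -0.014 to 0.28. For inflamed minus normal, median centring gave Lgr5 -0.085 and Tnfrsf19 -0.081, the replicate block gave Ascl2 0.072 and centring on epithelial markers gave it 0.19. There, leaving out inflamed mucosa 4 or normal mucosa 1 or 2 gave Lgr5 -0.051, -0.0997 or -0.045, and leaving out inflamed mucosa 3 or normal mucosa 6 gave Ascl2 0.065 or 0.073, within ranges of -0.0997 to 0.45 for Lgr5 and -0.17 to 0.073 for Ascl2. For adenocarcinoma minus inflamed, centring on epithelial markers gave Sp5 -0.12. Olfm4 lies close to the level of absent transcripts, so its differences are compressed.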

Other observations

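Genes reported for reserve or revival stem cells numbered 5. Of these, 2 rose in adenocarcinoma relative to normal mucosa, where 35.8% of all genes were called and 16.4% rose. Clusterin (Clu), which marks revival stem cells of the injured mouse intestine, had 10.58 ± 0.76 in adenocarcinoma, 8.74 ± 0.66 in inflamed mucosa and 8.42 ± 0.35 in normal mucosa (SD, n = 5, 4 and 4, limma adjusted p = 0.000496 for adenocarcinoma against normal and 0.00775 for adenocarcinoma against inflamed). Hopx had 8.25 ± 0.18 in adenocarcinoma and 7.67 ± 0.30 in normal mucosa (limma adjusted p = 0.00876). Clu is also made by other cells of the gut wall. On the same arrays Ascl2 was lowest in adenocarcinoma and Lgr5 showed no call against normal mucosa.

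Nkd1 was almost constant in normal mucosa, where its SD of 0.012 was smaller than that of all but 0.0752% of genes, on the same 4 arrays where Axin2 spanned 1.03 and Lgr5 1.65 log2 units. In the tumours its SD was 0.052. Among the tumours, adenocarcinoma 6, the oldest at 80 weeks, was highest in 6 of the 10 genes (Lgr5, Sp5, Axin2, Nkd1, Tnfrsf19 and Smoc2), where it was highest in 20.7% of all genes. Among the normal pieces, normal mucosa 6 was highest in 5 of the 10 (Lgr5, Ascl2, Axin2, Znrf3 and Smoc2), where it was highest in 17.4% of all genes. The same piece had the highest smooth muscle (7.96) and fibroblast (7.89) means of the normal pieces and the lowest epithelial mean (11.32). The part of these cells in its values was not tested.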
